A study of Drosophila melanogaster with 3 samples.

Results

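Distal intergenic binding regions of D were described here: 525 summits of the IDR-thresholded peak list, beside 4522 summits at other positions, so 10.4% of the list (exact binomial 95% interval 9.57 to 11.3). A summit is the position of highest signal in a peak. IDR (irreproducible discovery rate) is a rule that keeps peaks whose ranks repeat between replicates, but a listed peak need not stand in every one. The whole lists of replicates 1, 2 and 3 had a summit within 200 bp of 56.5%, 98.3% and 97.9% of all IDR summits. Members were chosen by position alone. Their summits lay outside every protein-coding gene, over 5000 bp from the nearest start site of a protein-coding transcript and over 500 bp from the start of any ncRNA or pre-miRNA gene, in the Ensembl annotation of the dm6 build. The chromatin came from whole Drosophila melanogaster embryos of mixed sex aged 0 to 14 h, in 3 biological replicates of 1 group. All were of the strain labelled D-GFP, which carries an insertion and expresses the D protein with GFP at its C terminus (D-eGFP), and DNA was recovered with an antibody against GFP. The series as given has no second genotype or treatment, so the comparisons below are between positions in the genome. Ages and tissues were mixed, so the cells in which a region was bound cannot be told apart, and chromatin of the native D locus cannot be told from that of a tagged copy.

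D (Dichaete) is a group B Sox protein, an HMG-domain transcription factor that bends DNA and acts in segmentation, the ventral nerve cord, the midline and the hindgut. Sox proteins bind short sites built on the core ACAAT or its close relatives, often beside a partner such as the POU factor vvl. Regulators of fly development are often surrounded by long gene-free stretches with several enhancers, DNA elements that act on a start site from a distance. A peak list gives where a factor was recovered, not which gene a region acts on. The gene nearest by start site is therefore used below as an address only.

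The DNA at the summits is shown first, because the same short word recurred beside many of them. The 4 regions below are the highest distal summits that held the word CACTGAG within 100 bp and were recovered in all 3 replicates, on the arms from which sequence is printed. Each covers 201 bp with the summit in the middle, read from the Release 6 genome (dm6). The word is in capitals, and on the other strand it reads CTCAGTG.
CG43401, chr2L:1433797-1433997, plus strand: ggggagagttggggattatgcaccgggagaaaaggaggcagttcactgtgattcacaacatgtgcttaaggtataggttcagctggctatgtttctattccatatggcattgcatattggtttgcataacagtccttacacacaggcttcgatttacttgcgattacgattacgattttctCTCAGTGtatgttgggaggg
Rca1, chr2L:6841422-6841622, plus strand: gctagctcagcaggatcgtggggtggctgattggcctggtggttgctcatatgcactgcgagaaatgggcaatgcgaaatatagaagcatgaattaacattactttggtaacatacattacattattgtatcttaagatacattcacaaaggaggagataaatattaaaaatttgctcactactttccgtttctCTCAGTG
Reg-2, chr3L:621477-621677, plus strand: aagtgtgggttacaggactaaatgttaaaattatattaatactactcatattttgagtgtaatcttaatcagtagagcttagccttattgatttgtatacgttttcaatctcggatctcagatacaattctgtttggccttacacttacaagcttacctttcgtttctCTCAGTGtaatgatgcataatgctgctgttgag
GCS2alpha, chrX:21593984-21594184, plus strand: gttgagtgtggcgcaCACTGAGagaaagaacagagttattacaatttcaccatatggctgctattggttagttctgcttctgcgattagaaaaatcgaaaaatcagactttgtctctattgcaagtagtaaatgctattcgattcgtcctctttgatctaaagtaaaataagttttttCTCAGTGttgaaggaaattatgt
In all 4 regions each match of the word read toward the summit. The first 3 had it on the right side only, and the GCS2alpha region had it on both sides, 82 bp before the summit and 81 bp after it, facing each other.

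The next 4 regions show the Sox core, ACAAT or ATTGT on the other strand, in capitals. The first 3 are the highest distal summits that held it and were recovered in all 3 replicates, on the same arms. The last is the highest distal summit whose nearest start site was that of D itself.
CG4004, chrX:12751222-12751422, plus strand: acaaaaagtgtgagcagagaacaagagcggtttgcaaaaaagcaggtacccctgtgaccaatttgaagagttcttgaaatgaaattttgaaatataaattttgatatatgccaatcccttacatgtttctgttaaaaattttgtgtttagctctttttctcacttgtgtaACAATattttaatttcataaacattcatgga
CG4004, chrX:12752283-12752483, plus strand: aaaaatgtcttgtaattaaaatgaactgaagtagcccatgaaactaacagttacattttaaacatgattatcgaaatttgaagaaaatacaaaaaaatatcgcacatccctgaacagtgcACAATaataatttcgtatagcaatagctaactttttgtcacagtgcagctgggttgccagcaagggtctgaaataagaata
chinmo, chr2L:1638708-1638908, plus strand: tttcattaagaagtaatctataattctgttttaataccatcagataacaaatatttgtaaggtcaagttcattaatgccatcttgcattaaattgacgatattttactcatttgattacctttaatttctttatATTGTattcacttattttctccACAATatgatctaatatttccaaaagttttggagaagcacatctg
D, chr3L:14170630-14170830, plus strand: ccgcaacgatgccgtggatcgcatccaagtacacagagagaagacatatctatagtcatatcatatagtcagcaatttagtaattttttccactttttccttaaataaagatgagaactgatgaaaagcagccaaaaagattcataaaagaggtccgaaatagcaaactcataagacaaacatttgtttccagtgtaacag
The CG4004 regions each held 1 Sox core and the chinmo region held 2. The region nearest to D held 0 within 100 bp of its summit.

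The summits lay from 5005 to 68495 bp from the nearest start site, with a median of 10793 bp. Of the 525 members, 292 lay over 10000 bp away, 85 over 20000 bp and 7 over 50 kb. Near the distance limit, the 3 members just inside it lay 5005, 5008 and 5064 bp from start sites of CG4004, CG14926 and exex, with signal values of 2462, 226 and 217. The 3 summits just outside it lay 4989, 4982 and 4961 bp from CG42852, CG4218 and rpr, with signal values of 275, 383 and 517. At the limit of 500 bp from a non-coding start, the nearest members stood at 516, 522 and 537 bp and the nearest summits left out at 495, 453 and 452 bp. A further 38 intergenic summits over 5000 bp from a start site were left out because a non-coding gene started within 500 bp. Of the members, 54 (10.3%) lay inside an ncRNA gene, in 36 such genes, beside 5.11% of all IDR summits. Compared with 33 of 519 near intergenic summits (6.36%), the odds ratio was 1.69 (two-sided Fisher's exact test, p = 0.0249). How much of distal and near space ncRNA genes cover was not measured, so the odds ratio is not corrected for it. Near intergenic summits are those outside genes that lie over 500 and up to 5000 bp from a start site. The ncRNA gene with the most members was lncRNA:CR32773, with 5, and lncRNA:bxd of the bithorax region held 3. Annotated transposable elements held 2 members (0.381%), against 0.198% of all IDR summits.

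The height of the regions is given by the authors' signal value for the pooled call, a measure of peak height against a control whose scale is not stated. Distal summits ran from 188 to 3010 with a median of 279, compared with a median of 310 over the whole list. In the highest quartile of signal stood 91 distal summits (17.3%), against 25.9% of the other summits of the list. There were 105 near intergenic summits (20.2%) and 564 of 1754 promoter summits (32.2%, within 500 bp of a start site) in it. Distal summits were less often in that quartile than promoter summits, with an odds ratio of 0.442 (Fisher's exact test, p = 1.07e-11). The distal and near shares were not told apart by the same exact test (odds ratio 0.827, p = 0.236). In these tests and the others between position classes a unit is a peak, so the p-values say nothing of the spread over replicates. A two-sided exact permutation test of differences within the 3 replicates cannot go below p = 0.25.

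The highest distal summit, on 2R at 13035300, had a signal value of 3010 and ranked 7 in the pooled list. It lay 11956 bp from the start site of CG13323, with a rank of 9 in replicate 2 and of 7 in replicate 3, and replicate 1 listed no summit within 200 bp of it. The next, on X at 12751322, had a signal value of 2462 and ranked 12, 33 and 30 in replicates 1, 2 and 3. A second summit near the same gene, CG4004, stood about 1 kb further, at 12752383, with a signal value of 1659 and ranks of 55, 70 and 139. The third, on 2R at 12959444, had a signal value of 2055, ranks of 40, 44 and 50, and lay 5891 bp from CG13321. All these ranks are within the first 139 of about 30000 regions in each replicate's list, apart from the missing match in replicate 1. Near chinmo, which encodes a BTB zinc-finger protein of neuronal temporal identity, stood 3 members, and all 3 were recovered in every replicate. The higher 2, at 1638808 and 1643493 on 2L, had signal values of 1433 and 1113. The first ranked 37, 252 and 156 and the second 193, 246 and 215 in replicates 1 to 3. Other members among the highest 20 lay near RYBP, which encodes a partner of Polycomb group proteins, with a signal value of 1376, and near slbo, the fly C/EBP protein of border cell migration, with 1298. The RYBP summit stood at ranks 111 and 114 in replicates 2 and 3, and replicate 1 had no match for it. The highest member near Ids, which encodes iduronate 2-sulfatase, had a signal value of 1119. The member near Rca1, a regulator of cyclin A, had 982. Others of the 20 lay near CG13896 (1309), CG43245 (1273), CG5103 (1124), CG11550 (1115), CG43401 (1012), CG3473 (987), CG7560 (967) and CG44362 (958), genes given here by name only. Of the 20, 18 were recovered in all 3 replicates, and 8 lay on 3L.

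**Figure D1:**
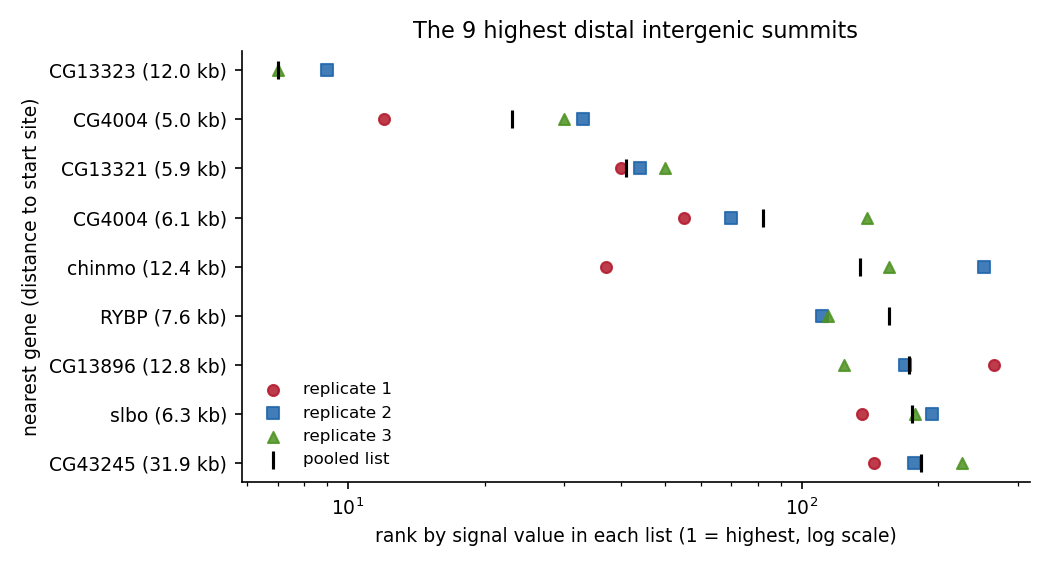
Rank by signal value of the 9 highest distal summits in the list of each replicate (coloured points) and in the pooled list (black bars), on a log axis where 1 is the highest. The summits near CG13323 and RYBP have no point for replicate 1, and the first summit near CG4004 ranked 12, 33 and 30 in replicates 1, 2 and 3.

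A summit was called recovered in a replicate when one of that replicate's highest summits, as many as the IDR list holds, lay within 200 bp. Replicate 1 recovered 385 distal summits (73.3%), 304 near intergenic summits (58.6%) and 675 promoter summits (38.5%), and 47.3% of all summits that were not distal. The distal share was higher than the near share (two-sided Fisher's exact test, odds ratio 1.94, p = 4.78e-07) and than the promoter share (odds ratio 4.40, p = 1.78e-45). Replicate 2 recovered 427 distal summits, 81.3% against 82.9% of near and 88.0% of promoter summits and 85.7% of all that were not distal. Replicate 3 recovered 428, 81.5% against 81.7% of near and 83.8% of promoter summits and 84.2% of all that were not distal. In these replicates the distal and near shares were not told apart (Fisher's exact test, p = 0.572 and p = 1.0), and the distal share was below the promoter share in replicate 2 (odds ratio 0.593, p = 0.000145). So in replicate 1 distal summits were found more often than the other classes, and in the others they were not.

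**Figure D2:**
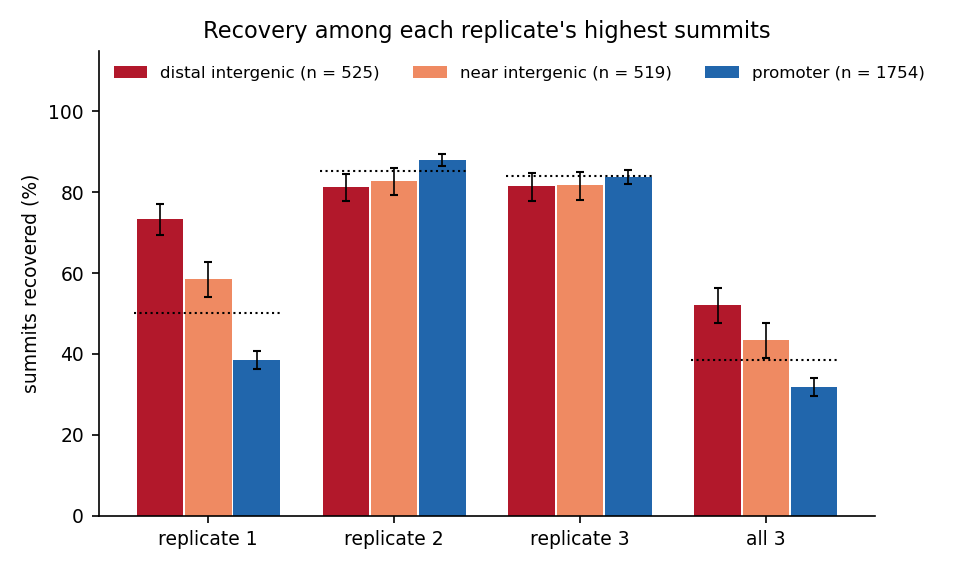
Share of distal intergenic, near intergenic and promoter summits recovered among the highest summits of each replicate, in percent, with exact binomial 95% intervals, and the share of the whole IDR list as dotted lines. In replicate 1 the shares fall from 73.3% to 58.6% to 38.5%, and in replicates 2 and 3 every class lies between 81.3% and 88.0%.

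The order of the classes in replicate 1 was the same in each quartile of signal. In the lowest quartile of signal, replicate 1 recovered 57.9% of distal, 36.9% of near and 15.5% of promoter summits. In the quartiles above, the values were 68.4%, 62.2% and 26.4%, then 85.4%, 70.6% and 38.6%, and in the highest 90.1%, 75.2% and 61.5%. Replicates 2 and 3 recovered all 91 distal summits of the highest quartile, beside 99.8% and 99.7% of all IDR summits in it. The pooled signal that sets the quartiles comes from the same 3 replicates. All 3 replicates recovered 273 distal summits (52.0%), against 43.4% of near intergenic and 31.8% of promoter summits and 36.9% of all summits that were not distal. The distal share was above the near share (Fisher's exact test, odds ratio 1.42, p = 0.00534) and the promoter share (odds ratio 2.32, p = 1.23e-16). Both differences rested on replicate 1. Recovery in replicates 2 and 3 alone gave an odds ratio against near summits of 0.970 (Fisher's exact test, p = 0.838). Against promoter summits the direction turned, at 70.7% of distal and 77.1% of promoter summits, an odds ratio of 0.714 (Fisher's exact test, p = 0.00308). Within replicates, the share recovered in each was higher for distal than for near summits in 1 of 3, a mean difference of 4.36 percentage points ± 9.03 (SD, n = 3, exact permutation test, p = 1.0). With 1 summit kept per intergenic span the odds ratio against near summits was 1.38 and missed the threshold (Fisher's exact test, p = 0.0576).

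Each replicate's own list gave a separate count that did not depend on the IDR list. Among its highest summits, cut to the same length, replicate 1 had 922 at distal positions (18.3%), replicate 2 had 486 (9.63%) and replicate 3 had 483 (9.57%), a mean of 12.5% ± 5.0 (SD, n = 3). Replicates 2 and 3 stood close together, and replicate 1 stood far above both. In the whole lists the shares were 20.9%, 11.0% and 11.0%. Distal positions made up 19.0% of the arms' length. Promoter summits moved the other way, at 18.7% of the highest in replicate 1 against 37.5% and 36.6%. Read depth and antibody yield are unknown for these libraries, and their part in the distal share was not tested. In the pooled list, distal positions were rarer among IDR summits than among the 22054 pooled summits that missed the list and lay over 1 kb from it, 10.4% against 14.7% (Fisher's exact test, odds ratio 0.673, p = 2.01e-16). Near intergenic positions were rarer too, at 10.3% against 12.1% (Fisher's exact test, odds ratio 0.835, p = 0.000332).

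Distal summits were spread unevenly over the chromosome arms. Of the 525, 199 (37.9%) lay on 3L, 108 on 2L, 101 on 3R, 59 on 2R, 56 on X and 2 on chromosome 4. The share on 3L was higher than that of near intergenic summits, 30.3%, at an odds ratio of 1.41 (Fisher's exact test, p = 0.0108), and of distal pooled summits below the threshold, 29.5% (odds ratio 1.46, p = 0.000129). Arm 3L holds 26.4% of all distal space, the 25.4 Mb where a summit would count as distal. Per Mb of that space there were 29.7 distal summits on 3L, against 20.7 over all. The values elsewhere were 24.6 on 2L, 21.0 on 3R, 13.9 on X, 11.2 on 2R and 11.1 on chromosome 4. Near intergenic summits per Mb of their own space were also densest on 3L, at 57.1 against 38.6 over all. A higher density on 3L was therefore not particular to distal summits. The shares on 3L are not corrected for the space each class has there. Arm 3L holds 2751678 of 13442500 bp of near space, a smaller part than its 6701522 of 25409900 bp of distal space. The tests of distal against near shares therefore cannot tell a preference for 3L from this difference in space. This holds for the replicate lists too. Each replicate's own list gave a share on 3L of its distal summits of 30.7%, 38.1% and 40.6%, above the 28.6%, 29.1% and 27.7% of its near intergenic summits. The difference was 8.0 percentage points ± 5.46 (SD, n = 3) and positive in 3 of 3 replicates (exact permutation test, p = 0.25, the smallest it can give). The members on 3L and those elsewhere had median signal values of 279 and 277, and 22.6% and 14.1% of them lay in the highest quartile of signal. All 3 replicates recovered 57.8% of the members on 3L and 48.5% of those elsewhere, and these shares are given without a test.

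**Figure D3:**
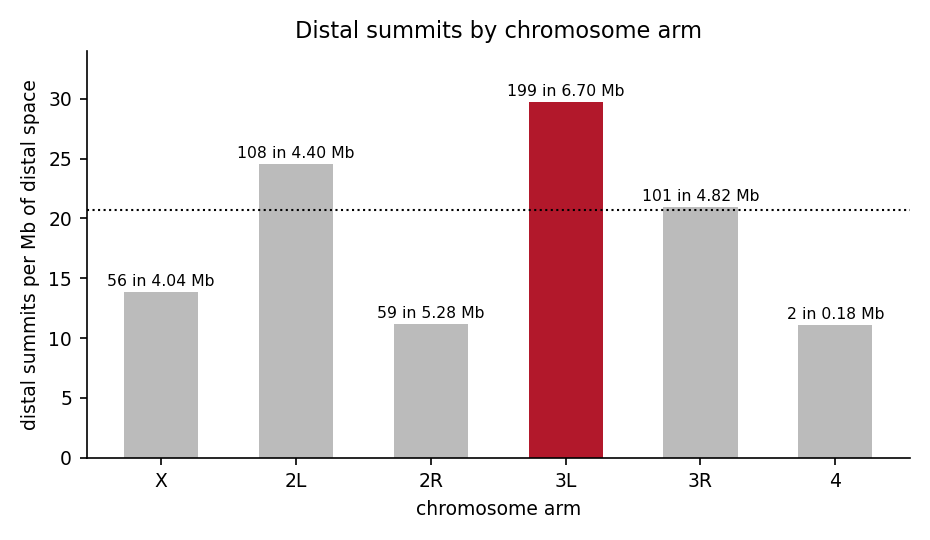
Distal summits per Mb of distal space on each chromosome arm, with the number of summits and the Mb of distal space above each bar and the value over all arms, 20.7, as a dotted line. Arm 3L stands highest, at 29.7, and 2R and chromosome 4 lowest, at 11.2 and 11.1.

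Among spans with a distal summit, those on 3L held more summits each. An intergenic span is the stretch between neighbouring protein-coding genes, and the 525 summits lay in 239 of them. Of these spans, 64 (26.8%) were on 3L, an arm with 26.4% of distal space in bp. They had a mean of 3.11 distal summits each, against 1.86 in spans elsewhere. How many spans with distal space each arm has was not counted. With only the highest summit of each span, the share on 3L was below that of near intergenic summits treated the same way, and the shares were not told apart (Fisher's exact test, odds ratio 0.843, p = 0.364). Of all spans, 124 held 1 distal summit, 46 held 2 and 69 held 3 or more. These 69 held 309 summits, 58.9% of the members. The span medians were 39695 bp for summits on 3L and 29391 bp for the others. On 3L 70.4% of members had another IDR summit within 5 kb, against 49.4% elsewhere. Over all members the share was 57.3%, beside 57.9% of the summits that were not distal. It was not told apart from the 61.8% of near summits, an odds ratio of 0.829 (Fisher's exact test, p = 0.147) and was above the 50.1% of promoter summits (odds ratio 1.34, p = 0.00386). The call against near summits depended on the setting: with 1 summit per span the odds ratio was 0.604 (Fisher's exact test, p = 0.00288), and 4 other settings also passed, at 0.570 to 0.746. With members over 3000 bp from a start site it turned to 1.07. Keeping 1 summit per span drops members that share a span with another, while neighbours were still counted over all IDR summits. The distal share was 38.9% in that setting. How much of its odds ratio this selection sets was not tested. The distance rule also bears on the share with another summit within 5 kb. Members lie over 5000 bp from every protein-coding start site, and promoter summits within 500 bp of one. Promoter summits can therefore hardly lie within 5 kb of a member, and none can within 2000 bp. Near and promoter summits themselves have no such limit. How much of these odds ratios the rule sets was not tested.

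The 7 spans with most members were all on 3L. The span between CG7320 and CheA75a had 12 distal summits over 29831 bp, with signal values from 200 to 679. The span between NijA and CG43245 had 11 within 25810 bp, from 194 to 1273, and that between CG44362 and CG7560 had 11 within 14711 bp, from 195 to 967. The span of 117 kb between vvl and Prat2 had 9, with a highest value of 596, and the span between hng3 and CG13898 had 9 (highest 540). In these 5 spans, the number of distal summits recovered in all 3 replicates was 7, 7, 8, 5 and 7 in the order given. The gene-poor span between Sox21b and D had 7 distal members among 13 IDR summits. The longest span, 138 kb between the odorant receptor gene Or67d and CG12362, had 6 members, of which one lay 68495 bp from the nearest start site, the greatest distance of all.

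**Figure D4:**
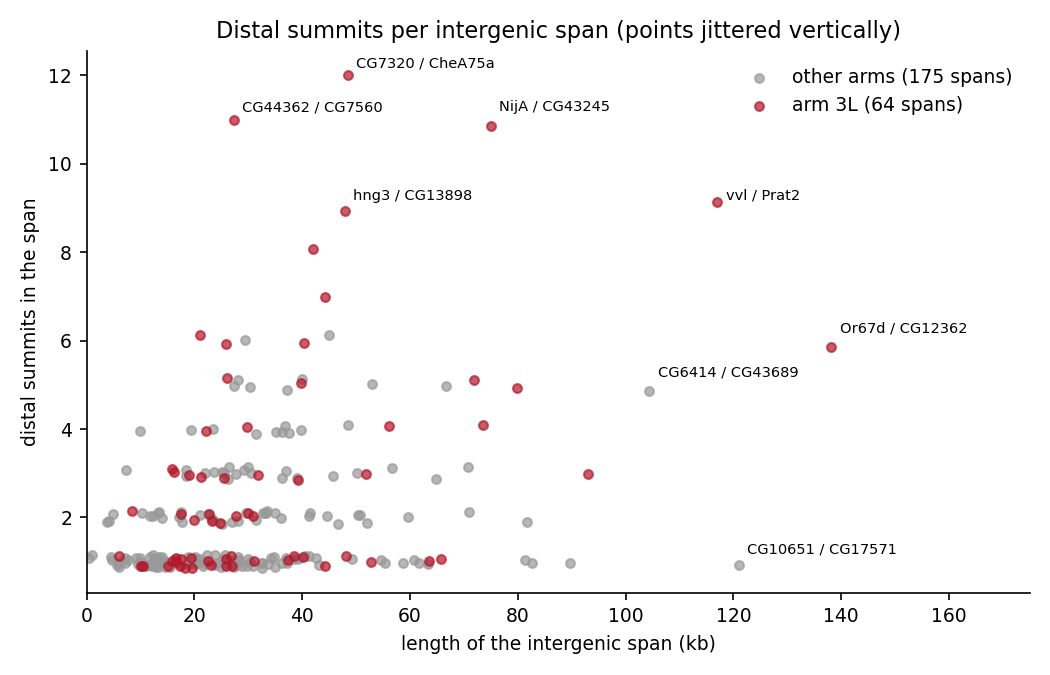
Number of distal summits in each of the 239 intergenic spans (vertical, jittered) against the length of the span in kb, with arm 3L in red. The spans with 7 or more distal summits are all on 3L, and long spans elsewhere often held 1.

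The genes that were nearest by start site to most distal summits were CG43245 with 13, hng3 and CheA75a with 8 each, CG7560 and vvl with 7 each, and CG12362, CG6163 and hry with 6 each. These 8 genes all lie on 3L. A further 8 genes had 5 each, of which 3 lie on 3L, 3 on 2L, 1 on X and 1 on 3R. Ids, on 3L, and CG15283, on 2L, had the highest signal values among them. The gene hry (hairy) is a pair-rule repressor of segmentation. The 7 summits of vvl, a POU factor of the trachea and midline and a known partner of D, lay 7301 to 49937 bp away, and 4 of them were recovered in all 3 replicates. In all, 294 genes were nearest to a distal summit. Only a gene beside enough gene-free DNA can be, and 2131 of the 13945 protein-coding genes were the nearest to any distal position, so 294 of these, 13.8%, is the background for the lists below.

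Among D and its relatives, D had 3 distal summits, SoxN had 1 and Sox21b had 4, so 3 of the 5 Sox genes with distal space were reached. The summit nearest to D, on 3L at 14170730, lay 6807 bp from its start site and 4880 bp from the gene's end, beyond its 3′ side. It had a signal value of 571 and ranked 691, 868 and 1121 in replicates 1, 2 and 3. The other summits near D, with values of 265 and 255, ranked 3702, 2701 and 4534, and, without a match in replicate 1, 2892 and 1360. The SoxN summit, on 2L at 8835011, lay 9366 bp from the start site of this close relative of D, had a value of 391 and ranked 989, 1813 and 2077. None of these D and SoxN summits stood as high in any list as the higher 2 members near chinmo. The 4 summits of Sox21b had values up to 328.

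Of the segmentation factors, 9 of the 19 with distal space had a distal summit, with 21 summits or 84.6 per Mb of their distal space, against 20.7 over all genes. They included oc, a head gap gene (2 summits, highest value 573), the pair-rule gene ftz (1, 461), the head gene ems (5, 383) and hry (6, 356). Of the homeobox genes of head, nerve cord and organs, 15 of 36 did, with 30 summits or 49.5 per Mb. Their highest were eyg of eye and salivary duct development (753), vvl (596), tup, a LIM-homeobox gene of motor neurons and dorsal tissue (533), and ap, the LIM-homeobox gene of the dorsal wing (472). Of the neuroblast and temporal factors, 6 of 12 did, with 12 summits or 89.3 per Mb, led by chinmo (1433), noc, a zinc-finger gene (759), sob (652) and pros, which ends neuroblast self-renewal (238). Members near noc, tup and chinmo were recovered in all 3 replicates in 3 of 5, 4 of 4 and 3 of 3 cases.

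Of the genes of signalling ligands, 6 of 20 had a distal summit, at 65.8 per Mb. The Wnt gene wg had 3, at 11058 to 13509 bp, with a highest value of 670, and all were recovered in every replicate. The FGF gene ths had 3 (highest 522), the Notch ligand gene Ser 2 (432) and the Hedgehog gene hh 1 (345). Of genes of neuronal adhesion and guidance, 6 of 39 did, at 24.99 per Mb, near the value over all genes. These were led by the leucine-rich repeat genes 18w (541), caps (445) and Toll-6 (414) and the immunoglobulin-domain gene DIP-delta (409). Of bHLH genes 2 of 6 did, Oli (341) and tap (202), and of the E(spl) and Bearded genes the 1 with distal space, Tom (207). None of 5 Hox genes, 6 muscle genes or 9 ribosomal protein genes with distal space had one, and no proteasome gene had distal space. By the other address, the genes on both sides of a summit's span, 3 of 8 Hox genes were reached, against 3.12% of all protein-coding genes. Both are taken over genes with and without distal space. Of the 8 Hox genes 5 had distal space, and of the 13945 protein-coding genes 2131 did. The span beside abd-A had 2 members, with a highest value of 845, that of Antp had 1 (461, the member nearest to ftz) and that of Abd-B had 1 (218). By the same count 1 of 22 muscle genes was reached, and no ribosomal protein or proteasome gene. The Hox genes had 0.0620 Mb of distal space and the muscle genes 0.0310 Mb, small parts of the 25.4 Mb in all. The lists are described by counts, and nothing is called particular to one of them.

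Height is given next by distance from the start site. Summits 5000 to 10000 bp away (233), 10000 to 20000 bp away (207) and further (85) had median signal values of 271, 302 and 265, and Spearman's rho of signal and distance over the 525 members was 0.04, as a description. Recovery in all 3 replicates was 46.4%, 57.5% and 54.1% in these classes. The share on 3L was 33.5%, 36.7% and 52.9%, higher with distance, and the class furthest away is the smallest. How much of the distal space at each distance lies on 3L was not measured, so these shares are not corrected for it.

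The DNA at distal summits was poorer in G and C than its surroundings. In the 201 bp around the summit the median GC content was 35.3%, against 40.5% in the same-sized windows 1000 bp to each side. It was lower at the summit in 369 members, higher in 151 and equal in 5 (exact sign test, p = 4.37e-22), with a median difference of -5.72 percentage points. The median difference was -5.97 percentage points at near intergenic and -9.70 at promoter summits. The lower GC content was therefore not particular to distal positions. The Sox core ACAAT, on either strand, lay in 282 distal windows (53.7%) and in 43.9% of the flanks, a ratio of 1.22, which missed the threshold (exact McNemar test, larger p of the 2 flanks 0.00347, Benjamini-Hochberg adjusted over 15 motifs 0.0521). Over all IDR windows the core stood in 52.1%. The other 19 arrangements of the same letters had ratios from 0.927 to 1.37 with a median of 1.20, and the core ranked 10 of the 20. Of the longer Sox words, AACAAT, which contains the core, had a ratio of 1.34. ACAATG, which also contains it, had 1.18, and ACAAAG had 1.32. None of the 15 motifs passed against the flanks after adjustment, and 2 of them, the core and AACAAT, had an unadjusted p under 0.05. The core stood in 53.0% of near intergenic and 51.2% of promoter windows, which were not told apart from distal windows (Fisher's exact test, odds ratios 1.03 and 1.11, adjusted p = 1.0 and 0.533).

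Of the 15 motifs, 3 were less frequent in distal than in promoter windows after adjustment. The DRE word TATCGATA, bound by Dref at housekeeping promoters, lay in 0.381% of distal and 4.85% of promoter windows (Fisher's exact test, odds ratio 0.0751, adjusted p = 1.00e-06) and in 1.84% of all. The M1BP word GGTCACAC lay in 0.190% and 2.17% (Fisher's exact test, odds ratio 0.0862, adjusted p = 0.00586) and in 0.931% of all. The E-box CAGCTG lay in 5.90% and 9.58% (Fisher's exact test, odds ratio 0.592, adjusted p = 0.0405) and in 7.21% of all. In the flanks of distal and promoter summits the E-box lay in 6.86% and 10.2%, so its lower share was not particular to the summit windows. The flank shares were 0.190% and 0.570% for the DRE word and 0.190% and 0.713% for the M1BP word. The Zelda word CAGGTA, of a factor that opens chromatin in the early embryo, lay in 3.81%, against 3.05% of flanks, 3.65% of promoter windows and 3.88% of all. The GAGAG word of the GAGA factor lay in 22.5%, against 20.7% of flanks and 23.0% of all. Neither passed against the flanks (exact McNemar test, adjusted p = 1.0 for both). None of the 15 motifs passed between distal and near intergenic windows, and 1, the homeodomain word, had an unadjusted p under 0.05 (Fisher's exact test).

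A screen of all 2080 words of 6 letters, each taken with its reverse complement, found 38 more frequent at distal summits than in both flanks (1.83%) and 4 less frequent (0.192%), by the exact McNemar test with Benjamini-Hochberg adjustment over all words. The 10 with the highest ratios were ACACTG (2.83), AGTGTA (2.80), GTACAC (2.64), ATACTA (2.39), CACTGA (2.38), ACAGTG (2.29), GTGCAC (2.15), CAGTGC (2.07), ACTGAG (2.06) and CTAATA (2.00). The word AGTGTA lay in 112 distal windows (21.3%) and 7.62% of flanks (exact McNemar test, adjusted p = 1.08e-06), and CACTGA in 107 (20.4%) and 8.57% (adjusted p = 0.000129). The least frequent against flanks was CACGCC, at 0.306, and the other 3 had ratios up to 0.412. Windows of 50 bp to each side left 9 more frequent words, and a sign test on mean flank counts gave 243. Run with the main settings at near intergenic summits, the screen found 49 more and 30 less frequent words. At the 1754 promoter summits it found 316 and 719. The words AGTGTA and CACTGA also passed at near intergenic summits, with ratios of 2.80 and 1.90 (exact McNemar test, adjusted p = 0.000353 and 0.00625).

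Several of the distal words listed above overlap. The word AGTGTA, read on the other strand, ends in the letters with which ACACTG begins. That word in turn runs into CACTGA, and CACTGA into ACTGAG. The 7-letter word CACTGAG, which joins the last of these, was chosen after these values were seen and is described without a test. It lay in 52 distal windows, 9.90% (exact interval 7.49 to 12.8), and in 1.14% of their flanks. The share was 8.09% at near intergenic, 6.76% at genic (inside genes, away from start sites), 2.96% at promoter and 5.88% at all IDR summits, with 1.93%, 1.73%, 1.54% and 1.60% in their flanks. With A as an 8th letter, 42 distal windows (8.0%) and 0.476% of flanks held it, and 4.22% of all IDR windows. So the word lay at summits of every position class, and its share was lowest at promoters.

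Most matches of the word had the same direction relative to the summit. Of its 56 matches within 100 bp of distal summits, 48 (85.7%, exact interval 73.8 to 93.6) read toward the summit, so that CACTGAG stood before it or CTCAGTG after it. The median distance of a match from the summit was 62 bp, with the middle 50% between 36 and 81.3 bp, and few lay at the summit itself. At all IDR summits 274 of 314 matches (87.3%) read toward the summit. Of the 52 distal summits with the word, replicates 1, 2 and 3 recovered 47, 46 and 42 (90.4%, 88.5% and 80.8%), and of the 473 without it 338, 381 and 386 (71.5%, 80.5% and 81.6%). The groups had median signal values of 322 and 273, GC contents of 35.6% and 35.3%, and 34.6% and 38.3% of them lay on 3L.

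**Figure D5:**
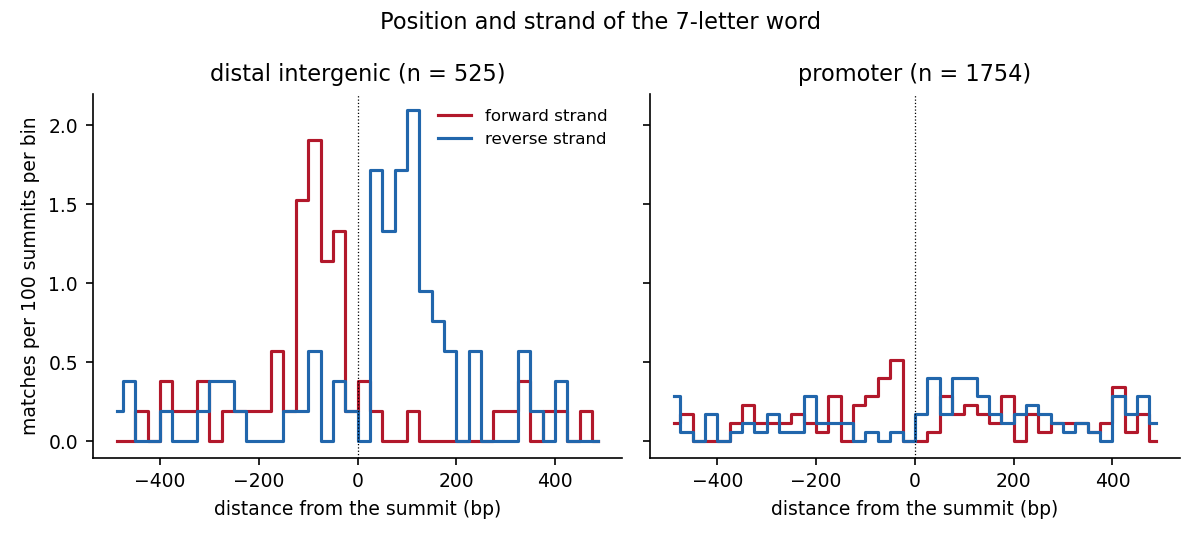
Matches of the 7-letter word per 100 summits in bins of 25 bp against distance from the summit, at 525 distal (left) and 1754 promoter summits (right), for the word on the forward (red) and reverse strand (blue). At distal summits forward matches gather before the summit and reverse matches after it, with few at the summit itself, and at promoters the pattern is lower.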

How the data were processed

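Whole-embryo ChIP-seq of tagged D was analysed from peak lists of 3 biological replicates, which are 1 group. Per the file headers and the deposited file lists, the authors called peaks and background regions for every replicate and for all of them pooled, against a control alignment, and derived the IDR-thresholded list. The deposited signal value (column 7) is the authors' measure of peak height, with no stated scale, and was used to rank and describe regions within a list. The summit is a deposited offset in bp from the interval's start, an other value that carries no height. Which aligner, caller and IDR cut-off were used is not given in the sources used here. Lists on the dm3 build were left out. Read depth is unknown, so no value is corrected for it, and intervals cover counting error only.

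Summits on X, 2L, 2R, 3L, 3R and 4 were classed on Ensembl release 115 and sequence was read from Release 6 of the genome with Python 3.11.15, numpy 2.4.6, pandas 2.3.3, scipy 1.17.1 and matplotlib 3.10.9. A summit within 500 bp of a protein-coding start site was put in the promoter class first. Position classes were compared by Fisher's exact test, motifs and words with both flanks by the exact McNemar test, keeping the larger p and setting it to 1 where the flanks disagreed in direction. The word screen was tested on simulated data with the same base composition in summit and flank windows, so the difference in GC content was not covered. Named genes are those nearest to the 20 highest members, the 10 with most members, those beside the 5 members in the longest spans, the highest 4 of each list, D and SoxN, and the 10 passing words of highest ratio. Other names were chosen after their values were seen: genes of the spans with most members, Sox21b, and words outside the screen's first 10. The members, the lists and the tests were chosen with earlier results of these data known. Members near 1 gene are not reported here by name. Other limits, windows and units were tried, as given at the end.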

Additional observations from a re-analysis of the deposited data

How the results depend on the processing

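Of 129 values under other settings, 99 kept their direction and side of the threshold or stayed within the set range. The count of 525 members became 292 over 10000 bp from a start site, 221 in the upper 50% of signal, 239 at 1 per intergenic span, and 306 to 371 in the summits recovered in both other replicates. Genes with a distal summit as nearest numbered 168 over 10000 bp, 169 for summits recovered in all 3 replicates, and 183 to 222 with a replicate left out. The odds ratio of recovery in all replicates against near summits was 1.38 at 1 summit per span and 0.970 to 1.61 with a replicate left out, the lowest without replicate 1. Its counterpart for the highest quartile turned to 1.19 at 1 per span. For another summit within 5 kb it was 0.746 within 2000 bp, 0.604 at 1 per span, 0.718 over 10000 bp, 0.570 in the upper 50%, all past the threshold, 1.07 over 3000 bp and 0.740 (without replicate 1, also past the threshold) to 1.0 with a replicate left out. The share on 3L turned to an odds ratio of 0.843 at 1 per span. For the Sox core against near summits, where nothing passed, the odds ratio was 0.958 at 1 per span, 0.984 outside ncRNA genes, 0.966 over 10000 bp, 0.835 over 3000 bp, 0.949 in windows of 50 bp and 0.990 to 1.21 with a replicate left out. Against promoters it was 0.994 at 1 per span, 1.0 (0.9999) in windows of 200 bp and 0.998 without replicate 2. More frequent words numbered 9 in windows of 50 bp and 243 by the sign test on mean flank counts. The causes were not tested, beyond the fewer summits that some settings leave. The distance rule and the choice of 1 summit per span also bear on the values for another summit within 5 kb, as given above.

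Keeping 1 summit per span or leaving out ncRNA genes was chosen after the data were seen. No paired analysis between groups was possible because there is 1 group, and within replicates the distal and near classes were compared as given above. Depth is unknown, so how it limits the low members cannot be said. Peaks of 1 span are not independent, and the nearest gene is an address only.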

Other observations

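Of the 525 summits, 139 (26.5%) lay between divergent genes, 261 (49.7%) between genes on the same strand and 125 (23.8%) between convergent genes. Of near intergenic summits the shares were 38.5%, 47.8% and 13.7%. These are given as a description, with no test. The distance rule bears on them, because convergent genes have their start sites away from the span and divergent genes beside it. Across members with a match in both lists, Spearman's rho of the signal value, given as a description, was 0.62 for replicates 1 and 2 (433 members), 0.59 for 1 and 3 (428) and 0.76 for 2 and 3 (503). For near intergenic summits the values were 0.69 (338), 0.66 (335) and 0.77 (496).

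The homeodomain word TAATTA lay in 14.9% of distal windows and 14.7% of their flanks, against 20.4% of near intergenic and 19.3% of promoter windows. Neither difference passed after adjustment (Fisher's exact test, odds ratios 0.680 and 0.731, adjusted p = 0.280 and 0.0722). The cause of the lower value was not tested.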
